A study of Mus musculus with 2 samples.

Results

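Genes of the fibroblast matrix and stroma were described in prostaspheres that kept or lost Sox9. The group held 10 genes, Dcn, Lum, Fbln1, Fbln2, Fbn1, Postn, Sparc, Pdgfra, Pdgfrb and Thy1, of 27822 gene symbols on the array. They were taken by symbol, as stromal genes other than collagens, and were measured by 16 probes. Of these genes, 10 were tested, each read from its brightest probe, and 14 of the 16 probes passed the filter on dim signal.

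Prostaspheres are small balls that prostate epithelium forms in Matrigel. According to the sample labels they were made from urogenital sinus epithelium of mouse embryos at 16 days post conception. The methods of the study describe prostate tissue of adult mice instead. All RNAs came from the C57/Bl6J background. After 6 days in Matrigel with dihydrotestosterone, spheres were exposed for 6 days to tamoxifen (TAM, 5 µM) or vehicle, and TAM deletes floxed Sox9 through a Cre recombinase fused to the estrogen receptor and driven from the Rosa26 locus, which is active in most cell types. Each of 2 arrays held 2 RNAs. The genotype comparison set TAM-treated wild-type spheres (Cy5) against TAM-treated ER-Sox9flox/flox spheres (Cy3), and the treatment comparison set vehicle-treated ER-Sox9flox/flox spheres (Cy5) against TAM-treated ER-Sox9flox/flox spheres (Cy3). The genotype label of the vehicle-treated RNA reads Sox9 null, as for the TAM-treated RNAs, and wild-type spheres were not labelled as carrying the Cre. A log2 ratio is Cy5 over Cy3, that is, Sox9-expressing over Sox9-deleted RNA, and the dyes were not swapped. Each comparison had 1 array, so that its own values have no replicate check, and nothing in the labels says from how many cultures or animals an RNA came.

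Sox9 itself had 3 probes. On 2 of them the log2 ratio was positive on both arrays (2.69 and 2.37 in the genotype and treatment comparison, and 1.18 and 1.27), and on the third it was negative (mean -1.11). All 10 measured epithelial markers were well above background in all 4 RNAs, whereas the prostate markers Pbsn and Foxa1 were above background in none.

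Fibroblasts and other stromal cells build the matrix that surrounds the prostatic epithelium, and during development the mesenchyme of the urogenital sinus directs budding of the epithelium. Decorin and lumican (Dcn, Lum) are small leucine-rich proteoglycans that bind collagen fibrils, fibulins and fibrillin (Fbln1, Fbln2, Fbn1) are parts of elastic fibers and microfibrils, and periostin and osteonectin (Postn, Sparc) are matricellular proteins, which act on cells rather than as scaffold. Pdgfra and Pdgfrb are the receptors for platelet-derived growth factors, and Thy1 is a surface glycoprotein used to mark fibroblasts. These genes are commonly used to recognize stromal cells, although epithelial cells can also express some of them, Sparc and Thy1 among them.

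Probes of Sparc, Dcn and Pdgfra are shown, and positions are those of the array annotation (mm9). The Sparc probes differed in sign in the genotype comparison, as did those of Fbln1, which are not shown. The second Dcn probe was at background, and the Pdgfra probe shown was printed 10 times on each array. Probes are 60 bases long. The whole Sparc probe with the brighter signal covers chr11:55209449-55212106 on the minus strand, a stretch of 2658 bases, so that its bases come from more than 1 exon. Of the others the first 30 bases are given, at chr11:55208013-55208072 for the second Sparc probe, at chr10:96980233-96980292 and chr10:96943347-96943406 for the Dcn probes, and at chr5:75593888-75593947 for the Pdgfra probe. The second Dcn probe was designed on an unclassified cDNA clone, and the other 4 on RefSeq mRNAs of the gene they are named for.
Sparc, brighter probe: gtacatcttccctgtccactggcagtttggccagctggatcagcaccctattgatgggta
Sparc, second probe: tgcaaactctcacagcgatgtgaagagctt
Dcn, brighter probe: aacaccttcagatgtgtctatgtgcgttct
Dcn, second probe: gagggatttacagattcacttcatacatac
Pdgfra, brighter probe: tgtatatatctgttgctatgtagacttgga

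Promoter sequence from RefSeq (GRCm38.p6) matched 6 of the 10 genes, Fbln1, Fbln2, Fbn1, Pdgfra, Postn and Sparc, with 8 start sites. The 250 bases before the start are shown for Fbln2 and Sparc, whose ratios lay farthest apart on the 2 arrays among the matched genes, and for Postn, the only one with the letters TATAAA, with searched motifs in capitals. They lie at chr6:91212514-91212763 on the plus strand, chr11:55420081-55420330 on the minus strand and chr3:54360857-54361106 on the plus strand.
Fbln2: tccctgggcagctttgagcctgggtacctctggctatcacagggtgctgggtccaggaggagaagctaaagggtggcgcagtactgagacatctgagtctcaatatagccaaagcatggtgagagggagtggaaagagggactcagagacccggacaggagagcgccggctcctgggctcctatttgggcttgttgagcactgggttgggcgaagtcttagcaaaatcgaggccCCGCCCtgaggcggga
Sparc: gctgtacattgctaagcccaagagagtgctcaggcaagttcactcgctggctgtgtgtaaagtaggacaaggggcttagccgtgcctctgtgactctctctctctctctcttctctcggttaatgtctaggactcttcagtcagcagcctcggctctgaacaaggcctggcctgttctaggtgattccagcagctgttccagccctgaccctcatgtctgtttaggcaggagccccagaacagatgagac
Postn: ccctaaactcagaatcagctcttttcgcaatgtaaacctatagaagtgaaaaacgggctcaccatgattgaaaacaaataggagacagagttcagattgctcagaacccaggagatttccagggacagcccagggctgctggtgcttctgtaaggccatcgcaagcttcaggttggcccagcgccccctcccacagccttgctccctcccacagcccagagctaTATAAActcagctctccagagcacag

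On both strands of these windows 5 motifs were searched. These were the TATA box letters TATAAA, the forms ACAAAG and ACAATG of the letters that Sox proteins bind, the Sp1 letters GGGCGG, and the CArG box, which serum response factor binds. TATAAA was found at 1 of the 8 start sites, 26 bases before the start in Postn, and in 12.4% of 32851 promoters of all genes. GGGCGG was found at 3 of the 8, in Fbln1, Fbln2 and Fbn1, and in 32.7% of all. ACAAAG was found at 0 of the 8 and in 16.5% of all, ACAATG at 0 and in 10.7%, and the CArG box at 0 and in 1.47%. A window without these letters says nothing about the factor.

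Stromal genes went opposite ways on the 2 arrays. All 10 had a log2 ratio below 0 in the genotype comparison and 9 of 10 above 0 in the treatment comparison, so that 9 of 10 were lower with Sox9 on the first array and higher on the second, a pattern held by 18.4% of the 15131 tested genes. With a log2 ratio at or below -0.25 on the first and at or above 0.25 on the second array, limits chosen after the values were seen, the count was 8 of 10, against 2.22% of tested genes. The median of the 10 genes was -0.67 on the first and 0.76 on the second array, where the medians of all tested genes were -0.01 and 0.01. Dcn alone was lower on both arrays, as were 33.8% of tested genes. With medians centred and no loess, which moved the median of all tested genes in the treatment comparison to 0.42, Dcn was at 0.60 there and 10 of 10 genes held the pattern, as did 35.1% of tested genes, and the median of the 10 genes lay 0.94 above that of all genes. In bulk RNA, fewer stromal cells and less RNA per stromal cell cannot be told apart.

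**Figure D1:**
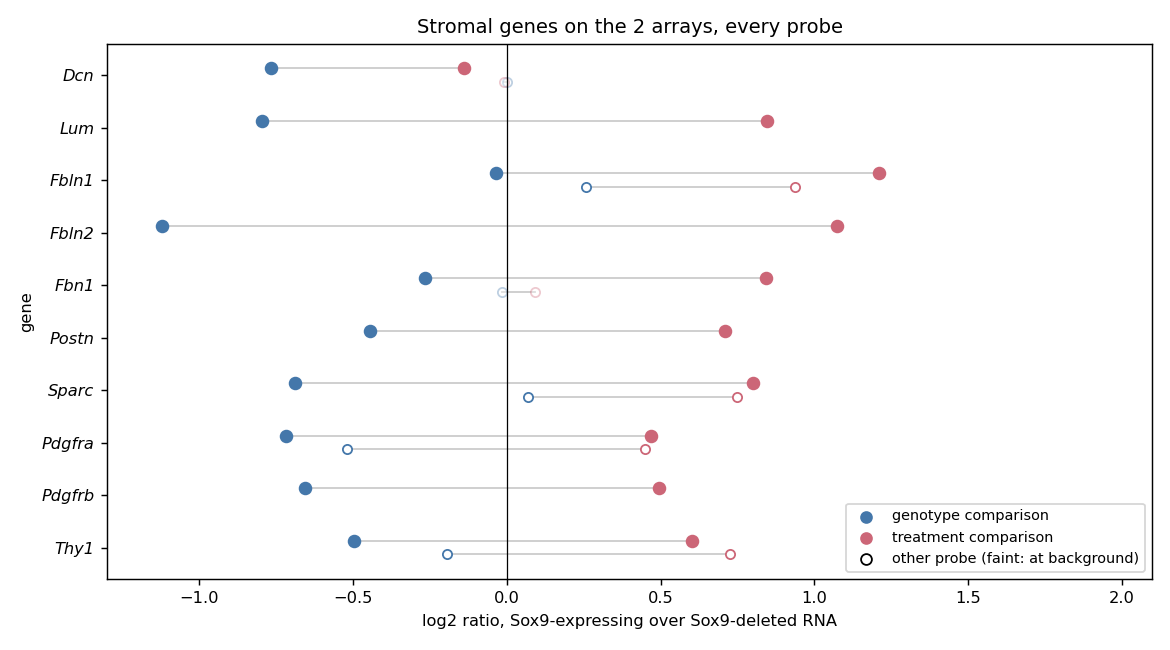
Log2 ratio (x axis, Sox9-expressing over Sox9-deleted RNA) of every probe of the 10 stromal genes (y axis) in the genotype (blue) and the treatment comparison (red), 1 array each, with the brightest probe of a gene filled, other probes open and the 2 probes at background faint. Filled blue points lie at or left of -0.03, and filled red points lie right of 0 for every gene but Dcn.

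**Figure D2:**
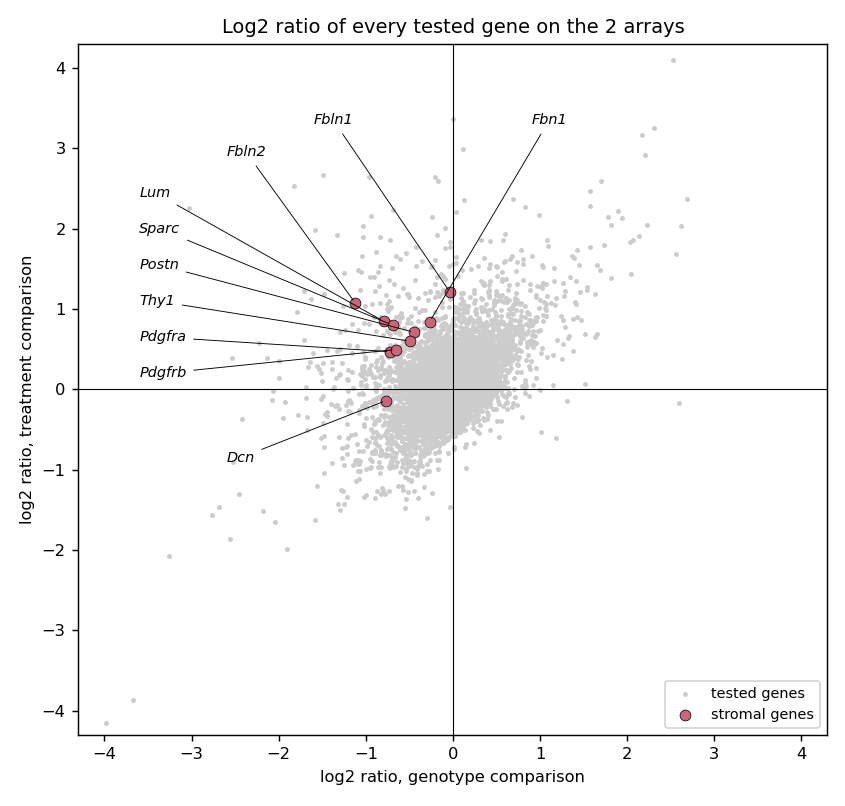
Log2 ratio of each of the 15131 tested genes in the genotype (x axis) and the treatment comparison (y axis), with the 10 stromal genes in red. They lie left of 0 on the x axis, 9 of them upper left and Dcn below 0 on the y axis.

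The 2 proteoglycans differed from each other in the treatment comparison. Decorin limits the thickness of collagen fibrils and binds growth factors. The normalized brightness of Dcn was 6924 in wild-type and 11780 in Sox9-deleted RNA of the genotype comparison, and 9756 in vehicle-treated and 10740 in Sox9-deleted RNA of the treatment comparison. It was thus lowest in wild-type RNA, while the other 3 RNAs lay close together, and its log2 ratios were -0.77 and -0.14. Lumican, its relative in cornea and other connective tissue, had a brightness of 277.9 in wild-type RNA against 482.3 in Sox9-deleted RNA, and of 907.9 in vehicle-treated RNA against 504.8 in Sox9-deleted RNA. Wild-type RNA was thus 1.74-fold below and vehicle-treated RNA 1.80-fold above the Sox9-deleted RNA beside it (log2 ratios -0.80 and 0.85).

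Among the elastic fiber genes, Fbln2 had the widest gap of all 10 between its ratios on the 2 arrays. Fibulin-2 is found in basement membranes and in elastic fibers. Its brightness was 8950 in wild-type and 19460 in Sox9-deleted RNA of the genotype comparison, and 30240 in vehicle-treated and 14350 in Sox9-deleted RNA of the treatment comparison. The log2 ratio was -1.12 (2.17-fold lower) on the first and 1.07 (2.11-fold higher) on the second array. Fibrillin-1, the backbone of microfibrils, had a brightness of 389.7, 468.6, 919.9 and 512.6 in the same order, with log2 ratios of -0.27 and 0.84. Fibulin-1, a partner of fibronectin and elastin, was at 288.9 in wild-type and 296 in Sox9-deleted RNA, and at 557.1 in vehicle-treated and 240.5 in Sox9-deleted RNA. Fbln1 thus hardly differed on the first array (log2 ratio -0.03) and had the highest ratio of the 10 on the second (1.21), where the vehicle-treated RNA was the brightest and the Sox9-deleted RNA the dimmest of the 4.

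Read from their brightest probes, both matricellular genes were dimmest in wild-type and brightest in vehicle-treated RNA. Periostin binds integrins and helps to cross-link collagen. The brightness of Postn was 4995 in wild-type and 6807 in Sox9-deleted RNA, and 10970 in vehicle-treated and 6699 in Sox9-deleted RNA, which gave log2 ratios of -0.45 and 0.71. Osteonectin, which binds collagen and calcium, read from the probe over several exons, was at 12380 and 19980 on the first and at 31530 and 18120 on the second array (log2 ratios -0.69 and 0.80). On these probes the Sox9-deleted RNAs lay between the Sox9-expressing ones, which did not hold on the second Sparc probe.

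The receptors and the surface marker kept the same order. Pdgfra, the receptor found on most mesenchymal progenitors, was at 520.5 in wild-type and 857.3 in Sox9-deleted RNA, and at 1157 in vehicle-treated and 836 in Sox9-deleted RNA (log2 ratios -0.72 and 0.47). Pdgfrb, which pericytes and fibroblasts carry, was at 1304, 2055, 2963 and 2101 in that order (log2 ratios -0.66 and 0.50). Thy1 was at 1452 in wild-type and 2048 in Sox9-deleted RNA, and at 3353 in vehicle-treated and 2211 in Sox9-deleted RNA (log2 ratios -0.50 and 0.60). In all 3 genes wild-type RNA was lowest and vehicle-treated RNA highest. Over the 10 genes, wild-type RNA was lowest in 9 (26.2% of tested genes), vehicle-treated RNA highest in 9 (31.5%), and both held in 8 (11.4%).

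**Figure D3:**
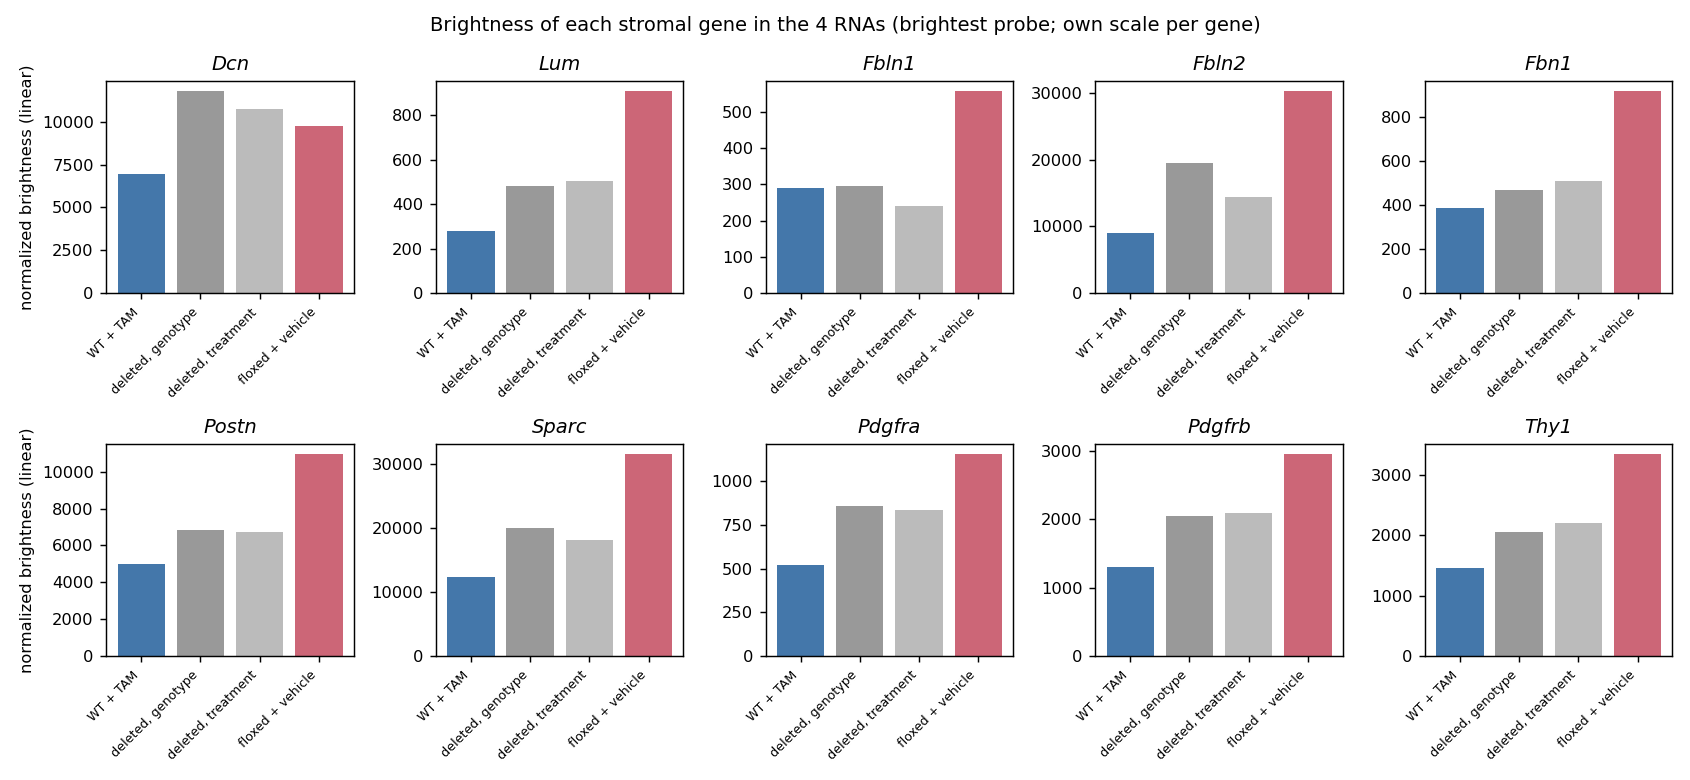
Normalized brightness (y axis, linear, starting at 0, own scale in each panel) of the brightest probe of each of the 10 stromal genes in the 4 RNAs (x axis), 1 RNA per bar and hence no error bar. Wild-type RNA (blue) is lowest in every gene but Fbln1 and vehicle-treated RNA (red) is highest in every gene but Dcn, with the 2 Sox9-deleted RNAs (grey) between them in 8 genes.

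Averaged over the arrays, these opposite ratios came close to 0, and 0 of the 10 genes passed an adjusted p of 0.05 in limma's test of the mean ratio, against 0.0132% (2) of the tested genes. At an unadjusted p under 0.05 the count was again 0 of 10, in limma and in the methods' t-test alike, against 19.5% and 8.8% of tested genes. The mean log2 ratio of Dcn, with the lowest adjusted p of the 10 genes, was -0.45 ± 0.44 (SD, n = 2 arrays, adjusted p = 0.309), that of Fbln1 was 0.59 ± 0.88 (adjusted p = 0.425) and that of Fbln2 was -0.02 ± 1.55 (adjusted p = 0.986). Of the other 7 the means lay between -0.13 (Pdgfra, SD 0.84) and 0.29 (Fbn1, SD 0.78). The SD was larger than the mean in 9 of the 10 genes, Dcn being the exception. A mean near 0 with such an SD does not show that the genes did not differ on either array.

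Read across the arrays, the difference lay between the Sox9-expressing RNAs more than between the Sox9-deleted ones. Tested genes at large shared this, to a smaller extent. Their median absolute log2 difference was 0.14 between the Sox9-expressing and 0.07 between the Sox9-deleted RNAs. Vehicle-treated over wild-type RNA gave a median log2 difference in brightness of 1.20 over the 10 genes, with a range from 0.49 (Dcn) to 1.76 (Fbln2, 3.38-fold), where the median of all tested genes was -0.01. A brightness at least 1.5-fold higher in vehicle-treated than in wild-type RNA was seen in 9 of the 10 genes and in 4.97% of tested genes. Between the Sox9-deleted RNAs of the 2 arrays the median of the 10 genes was -0.03, and that of all tested genes was -0.02. The range over the 10 genes was from -0.44 (Fbln2) to 0.13 (Fbn1), with Fbln1 at -0.30. These RNAs were never on the same array, so the values rest on scaling the arrays to each other and were not tested. On the processed signals of the scanner software, scaled to the median of each channel, wild-type RNA was lowest in 9 of 10 genes and vehicle-treated RNA highest in 9 of 10, as in 28.8% and 26.8% of tested genes. Genotype, TAM, array and the single RNA of each condition cannot be told apart in this difference.

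A second tested probe was at hand for 4 genes, Sparc, Fbln1, Pdgfra and Thy1. Both probes of a gene were above 0 in the treatment comparison in all 4, whereas in the genotype comparison they differed in sign in 2, Sparc and Fbln1. The second Sparc probe, shown above, was at 7644 in wild-type and 7291 in Sox9-deleted RNA, and at 10900 in vehicle-treated and 6488 in Sox9-deleted RNA. Its log2 ratio was therefore 0.07 on the first array, where the probe over several exons gave -0.69, and 0.75 on the second, close to 0.80. On this second probe both Sox9-deleted RNAs were dimmer than wild-type RNA. The second Fbln1 probe gave 0.26 on the first and 0.94 on the second array, with a mean of 0.60 ± 0.48 (n = 2, adjusted p = 0.251 in limma). The second probes of Pdgfra (-0.52 and 0.45) and of Thy1 (-0.20 and 0.73) had the signs of the first. The second probes of Dcn and of Fbn1 were not well above background in any of the 4 RNAs, and were not tested.

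The spread between spots was small beside the gap between the arrays. The brighter Pdgfra probe was printed 10 times on each array, and its spots ran from -0.78 to -0.67 in the genotype comparison (SD 0.04) and from 0.38 to 0.52 in the treatment comparison (SD 0.03 after 2 spots marked as outliers were left out). Such spots repeat the hybridization of 1 RNA, so that they give the error of the measurement and not that of the condition.

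**Figure D4:**
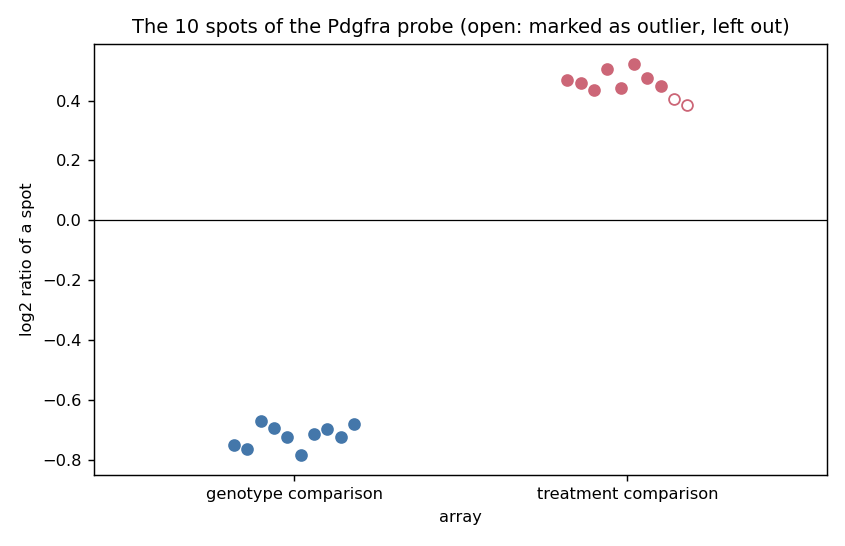
Log2 ratio (y axis) of each of the 10 spots of the brighter Pdgfra probe on the 2 arrays (x axis), with 2 spots that the scanner software marked as outliers open. Spots of the genotype comparison lie between -0.78 and -0.67 and those of the treatment comparison between 0.38 and 0.52.

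Other stromal and matrix genes were read from 6 lists, in which 0 genes passed an adjusted p of 0.05. Of all tested genes, 18.4% were lower on the first and higher on the second array. Of 21 further fibroblast markers, all tested, 20 were lower on the first and higher on the second array, with medians of -0.41 and 0.43. Within this list Fap, a surface protease of activated fibroblasts, had the highest mean (-0.18 and 1.40) and Pi16, a marker of adventitial fibroblasts, the lowest (-0.97 and 0.26). The pattern was held by 14 of 17 fibulin and elastic microfibril genes, with medians of -0.48 and 0.51. Efemp1, which codes for fibulin-3, had the lowest mean of these (-1.29 and 0.50). Ltbp4, which binds latent TGF-beta, had the highest and was positive on both arrays (0.89 and 0.82, mean 0.86 ± 0.05, n = 2, adjusted p = 0.0883 in limma). Of 8 fibroblast collagens 6 held the pattern, with medians of -0.81 and 0.65, from Col6a2 with the lowest mean (-0.72 and -0.03) to Col1a2 with the highest (-0.84 and 1.08).

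In the remaining 3 lists from 1 to 6 genes held the pattern. Of 9 small leucine-rich proteoglycans beside Dcn and Lum, 4 were tested and 1 of these, Bgn (-0.63 and 0.41), which codes for biglycan and had the lowest mean, went opposite ways. Ogn, which codes for osteoglycin, had the highest mean in this list and stood out in 1 RNA, with a brightness of 527.3 in vehicle-treated RNA against 119.3 in wild-type and 116.8 and 114.5 in the Sox9-deleted RNAs. Of 14 tested matricellular genes 6 held the pattern, with medians of -0.26 and 0.04. Tgfbi, a matrix protein induced by TGF-beta, had the highest mean of these and was positive on both arrays (2.20 and 2.92, mean 2.56 ± 0.50, n = 2, adjusted p = 0.0883 in limma), while Sparcl1, the closest relative of Sparc, had the lowest (-1.05 and 0.19). Of 5 genes listed with the PDGF ligands, 2 held the pattern, with medians of 0.02 and -0.17. Pdgfc, a ligand of Pdgfra, had the lowest mean (0.02 and -0.17) and Pdgfrl, which resembles the receptors but is no ligand, the highest (-0.20 and 1.15).

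**Figure D5:**
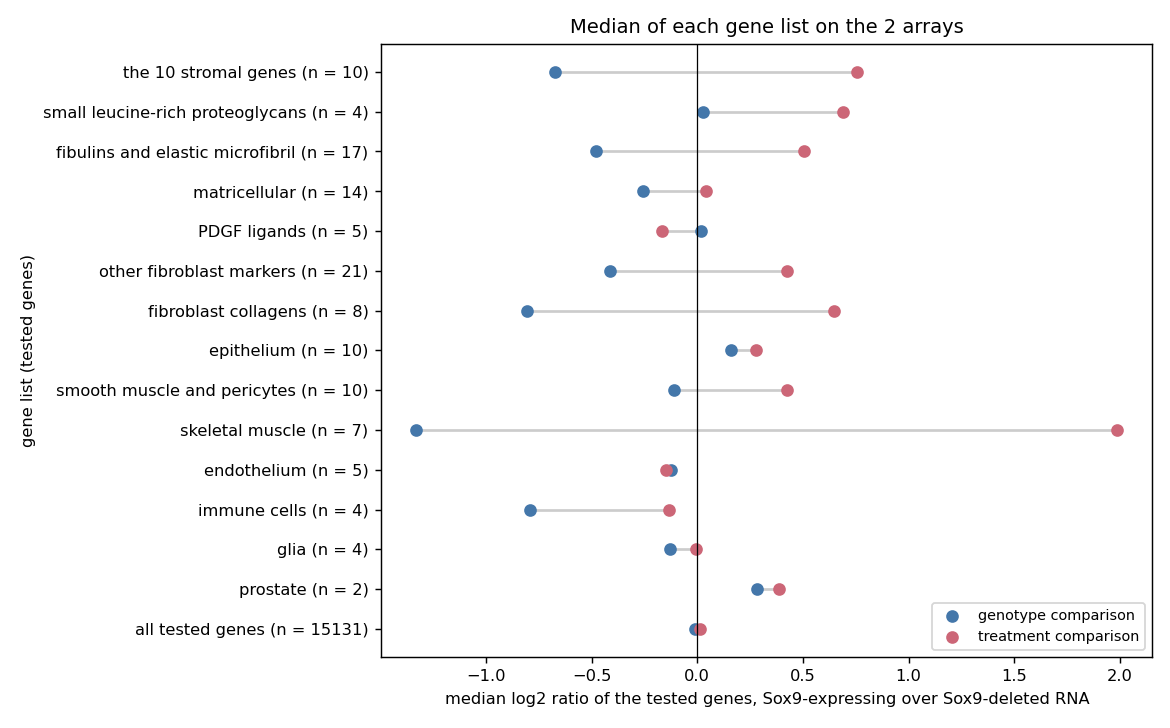
Median log2 ratio (x axis) of the tested genes of each list (y axis, with their number) in the genotype (blue) and the treatment comparison (red), 1 array each. The 10 stromal genes, further fibroblast markers, elastic microfibril genes and fibroblast collagens have medians below 0 on the first and above 0 on the second array. Matricellular genes (-0.26 and 0.04) and smooth muscle and pericyte markers (-0.11 and 0.42) do so too. Skeletal muscle markers do so with the widest gap (-1.33 and 1.99), but only 1 of the 7 tested was well above background in all 4 RNAs. All tested genes lie at -0.01 and 0.01.

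Markers of skeletal muscle moved with the stromal genes. Of 10 such markers 7 were tested, and all 7 were lower on the first and higher on the second array, with medians of -1.33 and 1.99, although 1 of them, Acta1, was well above background in all 4 RNAs and the other 6 were not so in wild-type RNA, where their ratios are bounds only. These 6 passed the filter through the Sox9-deleted RNAs alone, so that their sign on the first array was not free of the filter. The median on the first array was -4.97 on processed signals and -0.83 with dim probes kept, and 1 gene, Acta1, was left where all 4 RNAs had to be well above background. Their summed brightness over the 10 markers was 1376 in wild-type and 3545 in Sox9-deleted RNA, and 10210 in vehicle-treated and 2597 in Sox9-deleted RNA, while that of the 10 stromal genes was 37480, 64230, 92350 and 56310. Of 10 smooth muscle and pericyte markers 6 held the pattern (medians -0.11 and 0.42, summed brightness 17460, 23130, 36510 and 25970). Of 10 epithelial markers 0 held it, and their summed brightness was 452500 in wild-type and 280100 in Sox9-deleted RNA, and 383900 in vehicle-treated and 319100 in Sox9-deleted RNA. Without the basal keratins Krt5 and Krt14, left out after the values were seen, the sum of the other 8 turned, to 214900 and 224500 on the first and 183500 and 264800 on the second array. Of these 8, Cdh1, Krt18 and Cldn4 had log2 ratios below 0 on both arrays, Krt8 was at 0.01 and -0.74, and 4 were above 0 on both. The part of these cell types in the stromal values was not tested.

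Markers of the other cell types were mostly dim, with Cd14, Lyz2 and Erbb3 among the exceptions. In the endothelial list 0 of 5 tested genes held it, their medians were -0.12 and -0.15, and Pecam1, Tek and Tie1 were above background in no RNA. Among immune markers 0 of 4 tested genes held it (medians -0.79 and -0.13), and Ptprc, Emr1, Cd3e and Itgam were above background in no RNA. The 4 tested ones, Cd14, Lyz2, Cd68 and Csf1r, were well above background in all 4 RNAs. Brightness in wild-type and Sox9-deleted RNA was 1491 and 3071 for Cd14, and 1451 and 2708 for Lyz2. In vehicle-treated and Sox9-deleted RNA it was 2497 and 2580 for Cd14, and 3185 and 3524 for Lyz2. Of the glial markers 1 of 4 tested genes held it, with Gfap above background in no RNA. The summed brightness of the endothelial markers ran from 944.6 to 1062 over the 4 RNAs. That of the immune markers ran from 3763 to 7144, most of it from Cd14 and Lyz2. That of the glial markers ran from 1483 to 1766, most of it from Erbb3. With median centring the treatment medians of the PDGF, endothelial, immune and glial lists turned positive, to 0.49, 0.06, 0.20 and 0.14. The median of all tested genes was then 0.42 on that array, above those of the endothelial, immune and glial lists.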

How the data were processed

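The 4 labelled prostasphere RNAs (250 ng each) were hybridized to 2 two-color Agilent arrays on 1 slide. The labels do not say whether the 2 Sox9-deleted RNAs came from separate preparations. The deposited scanner intensity values were extracted by the authors with Agilent Feature Extraction 10.5.1.1 (annotation mm9). The authors also deposited log2 ratios, whose processing beyond limma is not given in the sources used here. Set against the deposited log10 ratios, which the scanner software made from its processed signals, and over spots brighter than 500 in each channel, these rose by 3.12 and 3.14 per unit, in the same direction, and their medians were -0.01 and -0.003. Groups follow the genotype and treatment labels. Source names, which call the Cy5 RNAs SOX9 and the Cy3 RNAs Ctrl, were not used.

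Mean intensity was background-corrected by normexp (offset 50) and normalized by loess within arrays (limma 3.58.1, R 4.3.3). Of 45018 spots per array, 1639 control spots and spots marked as outliers (126 and 130) were left out. Spots were averaged to 41174 probes, and 22731 that the software marked as well above background in Cy5, or in Cy3, of both arrays were tested. In each RNA 53.9% to 56.2% of probes were well above background, and 0 spots were saturated. The number of arrays limits the precision, and the offset understates ratios of dim probes. Mean log2 ratios were tested with lmFit and eBayes (1 residual and 2.80 prior degrees of freedom) with Benjamini-Hochberg adjustment over all tested probes, a test checked on simulated data. A gene was read from its brightest tested probe. Brightness across the 4 RNAs used loess, then Aquantile scaling.

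The 10 genes and all lists were chosen with earlier results of these data known. Some cell type markers are not reported here. Every probe of the 10 genes is reported, and of each related list the genes with the highest and lowest mean are named. Alternatives were an offset of 10, no background subtraction, processed signals, median centring, equal spread of arrays, the authors' values, other filters on dim and marked spots, the mean over probes of a gene, each array alone and the methods' t-test. Counts of genes opposite on the 2 arrays were added after seeing the data.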

Additional observations from a re-analysis of the deposited data

Results flagged for a closer look

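Read from their brightest probes, 9 of the 10 stromal genes were lower in the genotype and higher in the treatment comparison, as were 18.4% of tested genes. This difference was not tested, since each comparison has 1 array. On their second tested probes Fbln1 (0.26) and Sparc (0.07) were above 0 in the genotype comparison. In the genotype comparison the log2 ratio was -0.035 for Fbln1, -1.12 for Fbln2, -0.27 for Fbn1, -0.80 for Lum, -0.72 for Pdgfra, -0.66 for Pdgfrb, -0.45 for Postn, -0.69 for Sparc and -0.50 for Thy1. In the treatment comparison it was 1.21 for Fbln1, 1.07 for Fbln2, 0.84 for Fbn1, 0.85 for Lum, 0.47 for Pdgfra, 0.50 for Pdgfrb, 0.71 for Postn, 0.80 for Sparc and 0.60 for Thy1. The skeletal muscle markers, whose medians were -1.33 and 1.99, went the same way with a wider gap. Of the 7 tested, only 1, Acta1, was well above background in all 4 RNAs. The others were not so in wild-type RNA and passed the filter through the Sox9-deleted RNAs alone. Their sign in the genotype comparison was therefore not free of the filter. The part of the muscle markers in the stromal values was not tested.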

How the results depend on the processing

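The counts of stromal genes lower on the first and higher on the second array (9), and of stromal genes past an adjusted p of 0.05 (0), stayed within 1.5 times under every alternative run, from 8 (mean over the probes of a gene) to 10 (median centring) for the first. The median log2 ratio of the 10 genes ran from -0.92 to -0.53 in the genotype comparison and from 0.56 to 1.36 in the treatment comparison. Of all probes, 2 passed an adjusted p of 0.05, against 522 with median centring (491 higher, 31 lower), 68 on the authors' values, 21 when dim probes were kept, and 0 with an offset of 10, no background subtraction, processed signals, arrays of equal spread and the methods' t-test (which gave 1930 at an unadjusted p under 0.05, against 3990 in limma), and the cause was not tested. The methods' t-test called 0 of the 10 genes. Genes lower on both arrays fell from 1 to 0 with median centring, and genes higher on both rose from 0 to 1 with the mean over probes. With each array alone, from 0 to 9 of the 10 genes were higher, from 1 to 10 were lower, and the median ran from -0.67 to 0.76.

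Single ratios changed sign as follows, and the cause was not tested. The mean of Lum was -0.0102 with an offset of 10, -0.0864 with no background subtraction, -0.14 on processed signals, -0.23 with arrays of equal spread and -0.00767 on the authors' values. The mean of Sparc was -0.10 on processed signals and -0.18 with equal spread, where those of Thy1 and Postn were -0.12 and -0.0424. With median centring the means of Pdgfra, Pdgfrb and Fbln2 were 0.16, 0.25 and 0.46, and Dcn in the treatment comparison was at 0.60. Fbln1 in the genotype comparison was at 0.11 over both its probes. Over these alternatives, arrays alone aside, the lowest limma adjusted p of any of the 10 genes was 0.0844 (Fbln1). For skeletal muscle markers the count opposite on the arrays (7) was 1 where all 4 RNAs had to be well above background and 10 with dim probes kept, and their first-array median ran from -4.97 (processed signals) to -0.83 (dim probes kept). Each log2 ratio pairs the 2 RNAs of 1 array, and the tests of the mean ratio rest on these pairs. No test within a comparison was possible, because each comparison has 1 array and the 2 arrays form 1 group. Dye, array and RNA cannot be told apart with 0 swapped arrays, and the second probes of Dcn and Fbn1 were at background.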
